A study of Mus musculus with 108 samples.

Results

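Cerebral cortex and hippocampus of the same 6 wild-type (WT) mouse embryos were compared late in gestation, at embryonic day E17.5, in 12 RNA-seq libraries, 6 labelled E17.5_CX_WT and 6 labelled E17.5_HIP_WT, out of 108 libraries in the series. The members were taken by title, and the 2 libraries of an embryo were paired by the animal name given in the title. The series measured total RNA in 3 brain regions, the third being the cerebellum, for both genotypes (WT and Cul3+/-) at 3 ages, to follow what the loss of a copy of the ubiquitin ligase gene Cul3 does to the developing brain. Only 36 libraries outside this comparison were set beside it: 12 of Cul3+/- cortex and hippocampus at E17.5, 12 of WT at postnatal day 7 (P7) and 12 of WT at P35, of which 10 entered the fits. All animals carry the strain label C56Bl/6N. The WT animals have no engineered allele, and the Cul3+/- animals carry a germline frameshift insertion in Cul3 in every cell. The labels give no treatment, and they do not describe where the dissection cut between cortex and hippocampus was placed.

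The cortex and the hippocampus both arise from the dorsal telencephalon, the pallium. The neocortex builds layers of projection neurons, in which factors such as Fezf2, Tbr1 and Tle4 set the targets of the axons. The hippocampus grows from the medial edge of the pallium, beside the cortical hem. This signalling strip secretes Wnt and bone morphogenetic proteins (BMPs), gives rise to Cajal-Retzius cells and borders the choroid plexus. Late in gestation the pyramidal neurons of the hippocampal CA fields have largely been born, while granule cells of the dentate gyrus are still being produced. Glia, interneurons, blood vessels and microglia are common to both.

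The deposited values are expected counts, the number of reads assigned to each gene. Library totals ranged from 25782766 to 34893109 in cortex and from 15126093 to 32356926 in hippocampus, where the libraries of mice 1 and 4 were the smallest (15126093 and 15264674). Between 22132 and 24675 genes had a count above 0 in a library. Values below are CPM, the counts of a gene relative to all counts of its library, on library sizes scaled by the trimmed mean of M-values, and levels are given as the lowest, median and highest of the 6 libraries of a region. A gene was called when edgeR's quasi-likelihood test, with mouse as a block, gave a Benjamini-Hochberg adjusted p of at most 0.1 over all genes tested, and differences are log2 fold changes of hippocampus over cortex ± standard error (SE). The first principal component held 48.4% of the variance and separated the regions. The second held 20.2% and set both libraries of mice 3 and 4 apart from the other 8. Sex-linked transcripts gave the same sex for both libraries of a mouse in 6 of 6 mice, which does not tell mice of one sex apart.

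Of 16804 genes tested, 7460 (44.4%) differed between the regions. Hippocampus was higher for 4270 genes (25.4%) and lower for 3190 (19.0%), and the median difference over all genes tested was -0.0039. This split depends on the fit: a fit of these libraries together with P7 and P35 called 5211 of 19530 genes higher (26.7%) and 5720 lower (29.3%), with a median difference of -0.041. A called difference of at least 2-fold was found for 1378 genes higher in hippocampus (8.20%) and for 521 genes lower (3.10%). Among the 1378, 1308 were higher in all 6 mice, 1006 had hippocampal libraries that all lay above all cortical ones, and 167 differed by at least 8-fold. Among the 521, 458 were lower in all 6 mice, 308 had libraries that did not overlap, and 33 differed by at least 8-fold. Over all genes tested the libraries of the regions did not overlap for 16.5%. In bulk tissue, more cells of a type and more RNA per cell cannot be told apart, so each value below describes the tissue and not a cell.

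The genes with the largest differences were secreted Wnt signals, midline and choroid plexus genes on the hippocampal side, and regulators of neocortical projection neurons on the cortical side. They were the 10 genes in each direction with the largest fitted change among those that moved the same way in all 6 mice and reached a mean of 5 CPM. On the hippocampal side these were Folr1, Wnt3a, Wnt8b, Ttr, Clic6, Wnt2b, Otx2, Rspo1, Lmx1a and Sp5, with differences from 5.30 ± 0.33 for Sp5 to 7.08 ± 0.67 for Folr1. The places of Folr1 and Clic6 rest on the hippocampal library of mouse 2: without it their differences were 4.92 and 4.82, under the 5.23 of Sp5, and their hippocampal means were 1.496 and 3.61 CPM, under the minimum of 5 CPM. On the cortical side they included 9130024F11Rik, Sla, Mc4r, Pou3f2, Gipr, Hs3st3b1, Hs3st2, Tshz3 and Ntsr1, with differences from -3.50 ± 0.28 for Ntsr1 to -7.10 ± 0.44 for 9130024F11Rik. For all 20 the libraries of the regions did not overlap.

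Among them, the RIKEN transcript 9130024F11Rik stood at 74.4, 79.8 and 86.8 CPM in cortex and 0.0679, 0.588 and 1.66 CPM in hippocampus (adjusted p = 1.41e-05). Whether the counting used the strand is not given in the sources used here, so its values are uncertain to the extent that it shares reads with an overlapping gene. Sla, a Src-like adaptor of receptor signalling, stood at 167, 216 and 262 CPM in cortex and 2.10, 6.73 and 16.9 CPM in hippocampus. Its groups did not overlap (difference -4.97 ± 0.44, adjusted p = 8.18e-05). The receptor genes on the cortical side were Gipr, for the incretin GIP, at 43.8, 56.2 and 63.5 CPM in cortex and 2.65, 3.76 and 5.24 CPM in hippocampus (difference -3.87 ± 0.13, adjusted p = 1.94e-06), and Mc4r, for melanocortin, at 6.57, 18.7 and 25.0 CPM in cortex and 0.377, 0.789 and 1.06 CPM in hippocampus (difference -4.58 ± 0.35, adjusted p = 3.93e-05). The heparan sulphate sulphotransferases Hs3st3b1 and Hs3st2 were also lower in hippocampus, at -3.77 ± 0.38 and -3.61 ± 0.46 (adjusted p = 1.47e-04 and 5.34e-04). Their hippocampal libraries did not exceed 0.528 and 3.02 CPM, under cortical minima of 3.17 for Hs3st3b1 and 6.25 for Hs3st2.

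Genes known from the hippocampal fields were mostly higher in hippocampus. Of 54 on the list, 50 were tested, 29 were called higher, 10 lower and 11 were not called, with a median difference of 0.67. Over all genes tested 25.4% were called higher. Of the factors that mark the hippocampus as a whole, 8 of 13 were higher and 3 lower (median 0.82). Zbtb20, the zinc finger repressor that sets hippocampal field identity, lies at chr16:42875881-43642602 on GRCm38 and stood at 149, 163 and 256 CPM in cortex and 719.7, 889.7 and 1810.0 CPM in hippocampus. No library of cortex reached the lowest of hippocampus, and the difference was 2.58 ± 0.25 (adjusted p = 1.37e-04). Lhx9, a LIM homeodomain factor of the medial pallium that is also on the list of thalamic markers, stood at 1.35, 3.65 and 11.2 CPM in cortex and 61.8, 76.4 and 122 CPM in hippocampus. The groups did not overlap (difference 4.44 ± 0.23, adjusted p = 6.87e-06), although the cortical library of mouse 4 was above its group. Nrp2, a co-receptor for class 3 semaphorins, stood at 50.7, 113 and 136 CPM in cortex and 569.8, 626 and 716 CPM in hippocampus (difference 2.71 ± 0.19, adjusted p = 2.69e-05). Emx2, a homeobox gene needed for growth of the hippocampus, stood at 7.15, 9.80 and 15.3 CPM in cortex and 30.9, 36.2 and 58.5 CPM in hippocampus (difference 2.07 ± 0.12, adjusted p = 1.09e-05). Both were higher in every hippocampal library. The lower genes included Meis2 at -1.69 ± 0.13, a homeobox gene also on the striatal list, and Tox3 at -0.82 ± 0.11 (adjusted p = 3.63e-05 and 8.46e-04).

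**Figure D1:**
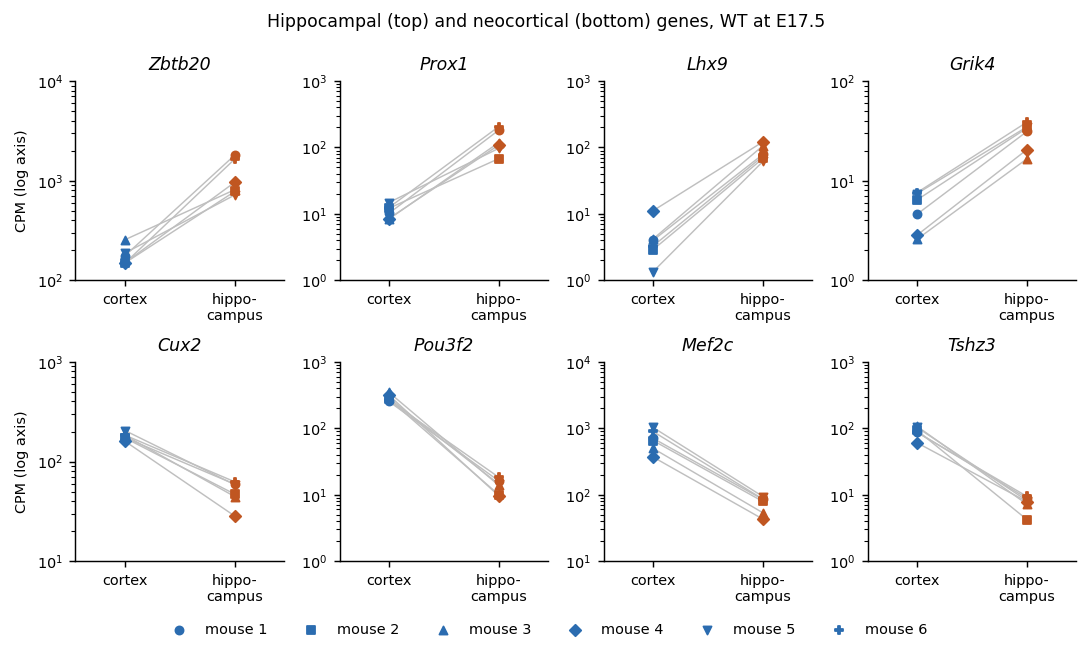
Levels of 4 hippocampal genes (top) and 4 neocortical genes (bottom) in each of the 6 WT mice at E17.5, in CPM on a log axis. Each symbol is a mouse and grey lines join its cortex and hippocampus, and for all 8 genes the libraries of the regions do not overlap.

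Genes of the dentate granule lineage were higher for 10 of 14 and lower for 2, with a median of 1.21. The shares over all genes tested were 25.4% higher and 19.0% lower. Prox1, the homeobox factor that fixes granule cell fate and also marks a set of interneurons, stood at 8.38, 11.2 and 14.8 CPM in cortex and 68.1, 114 and 207 CPM in hippocampus. Every hippocampal library was above every cortical one, and the fitted fold was 11.2 (adjusted p = 3.07e-05). Neurod1, a proneural factor that granule neurons require, stood at 23.5, 32.8 and 60.8 CPM in cortex and 175, 222 and 311 CPM in hippocampus (difference 2.75 ± 0.10, adjusted p = 2.16e-06). Stxbp6, a regulator of exocytosis, and the secreted Sema3c were higher by 2.04 ± 0.08 and 1.57 ± 0.11 (adjusted p = 2.74e-06 and 2.62e-05), again with no overlap. The 2 lower genes were Tdo2, under 1 CPM in every library, at -1.19 ± 0.45 and C1ql3 at -0.65 ± 0.16 (adjusted p = 0.0685 and 0.0121). Their calls were lost under other settings: Tdo2 without mouse 4 or 6 (adjusted p = 0.145 in each) and C1ql3 without the mouse block (adjusted p = 0.273).

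Genes of the pyramidal fields were divided. For CA1, 4 of 10 were higher and 4 lower (median 0.40), beside 25.4% higher and 19.0% lower over all genes tested. Fibcd1 and Wfs1, adult CA1 markers, stood at 5.36, 7.86 and 9.17 CPM in cortex and 18.6, 20.8 and 25.2 CPM in hippocampus and, for Wfs1, at 2.19, 3.39 and 4.05 CPM in cortex and 6.995, 8.38 and 9.98 CPM in hippocampus. Neither gene overlapped between the regions, with differences of 1.55 ± 0.14 and 1.34 ± 0.13 (adjusted p = 7.74e-05 and 1.29e-04). Nr3c2, the mineralocorticoid receptor, was higher by 1.76 ± 0.26 in 6 of 6 mice with overlapping groups (adjusted p = 0.00106). Dcn, the proteoglycan decorin, was higher by 2.94 ± 0.49 (adjusted p = 0.00215), and it is also on the list of meningeal markers that was raised as a whole. The lower genes were Pou3f1, a POU factor, at 42.8, 49.1 and 54.6 CPM in cortex and 0.635, 3.99 and 12.01 CPM in hippocampus, and Mpped1 at 730.4, 782 and 914 CPM in cortex and 117, 193 and 268 CPM in hippocampus. Neither overlapped, with differences of -3.41 ± 0.40 and -2.19 ± 0.19 (adjusted p = 3.60e-04 and 6.17e-05). Man1a and Gpr161 were lower by little, at -0.31 ± 0.09 and -0.30 ± 0.08, and the call on Man1a was lost without the mouse block (adjusted p = 0.375). For CA2 and CA3, 7 of 13 were higher and only Coch was lower (median 0.28). Grik4, a kainate receptor subunit dense in CA3, stood at 2.59, 5.52 and 7.61 CPM in cortex and 16.6, 32.5 and 38.7 CPM in hippocampus. Cpne4, a calcium-dependent membrane-binding protein, stood at 5.32, 10.5 and 12.97 CPM in cortex and 45.0, 55.1 and 65.3 CPM in hippocampus. Both were separate between regions, with differences of 2.53 ± 0.11 and 2.55 ± 0.14 (adjusted p = 2.84e-06 and 7.67e-06), and the adhesion gene Nectin3 was also separate, with a difference of 0.79 ± 0.09 (adjusted p = 3.44e-04). Galnt3 was higher by 1.11 ± 0.28 (adjusted p = 0.0145) and lost its call without the mouse block (adjusted p = 0.192). Coch was at -0.46 ± 0.16 (adjusted p = 0.0507) and lost its call without mouse 1, 5 or 6. The field genes Nfix and Lmo1, and 9 other tested members of the list, were not called. Nfix stood at 349, 412 and 797 CPM in cortex and 257, 667 and 864 CPM in hippocampus, so its groups covered each other.

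Genes of neocortical projection neurons were mostly lower in hippocampus. Of 69 listed, 67 were tested, 36 were called lower, 15 higher and 16 were not called, with a median of -0.47. Over all genes tested 19.0% were called lower. Upper-layer genes were lower for 11 of 16 and higher for 2 (median -1.45). Pou3f2, a POU factor of upper-layer neurons, stood at 253, 279 and 347 CPM in cortex and 9.59, 14.1 and 18.3 CPM in hippocampus. The lowest cortical library was above the highest hippocampal one by more than 10-fold, and the fitted difference was -4.43 ± 0.17 (adjusted p = 2.74e-06). Cux2, a homeobox factor, stood at 159.8, 178 and 205 CPM in cortex and 28.3, 52.8 and 62.6 CPM in hippocampus, and Kitl, the ligand of the receptor Kit, at 123, 162 and 196 CPM in cortex and 47.4, 67.1 and 78.5 CPM in hippocampus. Neither had overlapping groups (differences -1.88 ± 0.12 and -1.37 ± 0.08, adjusted p = 1.98e-05 and 1.01e-05). The 2 higher genes were Lhx2, a selector gene of the whole pallium, at 0.73 ± 0.06 and the adhesion molecule Mdga1 at 0.40 ± 0.16 (adjusted p = 4.21e-05 and 0.0822). The call on Mdga1 was lost without mouse 1, 4, 5 or 6.

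Layer 6 genes mark corticothalamic neurons. They were lower for 9 of 11 and higher for 2, against 19.0% lower and 25.4% higher over all genes tested. Their median of -1.77 was the lowest of any neocortical role. Tshz3, a zinc finger factor of deep-layer neurons, stood at 60.5, 90.5 and 107 CPM in cortex and 4.22, 8.02 and 9.44 CPM in hippocampus. Ntsr1, the neurotensin receptor of corticothalamic cells, stood at 15.9, 30.8 and 38.8 CPM in cortex and 0.572, 2.95 and 5.09 CPM in hippocampus. The groups were separate for both, with fitted folds of 11.9 for Tshz3 and 11.3 for Ntsr1 (adjusted p = 7.67e-06 and 4.36e-05). Tle4, a corepressor, and Sox5, which controls the order in which deep-layer neurons form, were lower, at -1.65 ± 0.10 and -1.88 ± 0.17 (adjusted p = 1.10e-05 and 9.15e-05), with no overlap. Foxp2, a forkhead factor of layer 6, was lower, at -2.60 ± 0.34 (adjusted p = 5.68e-04). The 2 higher genes were Zfpm2 at 0.92 ± 0.19 and Nfia at 0.99 ± 0.34 (adjusted p = 0.0057 and 0.0487), and the call on Nfia was lost without mouse 1 or 6.

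Layer 5 genes were split, with 6 of 13 lower and 4 higher (median -0.10), beside 19.0% lower and 25.4% higher over all genes tested. Ldb2, a LIM-domain cofactor, stood at 44.5, 61.4 and 81.6 CPM in cortex and 4.70, 12.7 and 17.7 CPM in hippocampus, and Tox, an HMG-box factor, at 16.7, 29.6 and 50.1 CPM in cortex and 1.59, 4.30 and 8.97 CPM in hippocampus. Both were lower without overlap, with differences of -2.37 ± 0.17 and -2.83 ± 0.44 (adjusted p = 2.93e-05 and 0.00153). Fezf2, the selector of subcerebral projection neurons, differed much less: it stood at 57.0, 78.6 and 119 CPM in cortex and 43.4, 62.2 and 82.8 CPM in hippocampus, with groups that overlapped although hippocampus was lower in all 6 mice (difference -0.45 ± 0.11, adjusted p = 0.0147). Etv1 showed the same form at -0.68 ± 0.17 (adjusted p = 0.0137). Without the mouse block neither Fezf2 nor Etv1 was called (adjusted p = 0.126 and 0.215). The higher genes were Foxo1, Crym, Pcp4 and S100a10, at 1.94 ± 0.24, 1.85 ± 0.25, 1.21 ± 0.09 and 0.95 ± 0.21 (adjusted p = 4.61e-04, 7.11e-04, 4.02e-05 and 0.00812). Crym, a thyroid hormone-binding protein, stood at 25.8, 59.2 and 91.3 CPM in cortex and 152, 190.0 and 267 CPM in hippocampus, so each hippocampal library was above each cortical one.

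Subplate genes showed no common direction, with 3 of 11 higher and 3 lower (median 0.45). These counts are near the shares over all genes tested, 25.4% called higher and 19.0% lower. St18, a zinc finger factor, stood at 7.04, 13.96 and 23.5 CPM in cortex and 59.8, 81.4 and 88.4 CPM in hippocampus and was higher without overlap (difference 2.49 ± 0.26, adjusted p = 2.06e-04). The GABA receptor subunit gene Gabra5 was higher by 0.91 ± 0.13 (adjusted p = 0.00106) and lost its call without the mouse block (adjusted p = 0.202). Tmem163 was higher by 0.46 ± 0.11 (adjusted p = 0.0139). Nr4a2, an orphan nuclear receptor of the subplate, stood at 22.3, 65.5 and 85.2 CPM in cortex and 6.61, 10.6 and 19.7 CPM in hippocampus and was lower without overlap (difference -2.15 ± 0.31, adjusted p = 0.00103). Kcnab1 was lower, at -1.51 ± 0.14 and Nrgn at -0.72 ± 0.23 (adjusted p = 8.59e-05 and 0.0382), and Nrgn was not called without the mouse block (adjusted p = 0.676). Among genes that form areal gradients, 7 of 16 were lower and 4 higher (median -0.03), so the share higher was near that of all genes. Mef2c, a transcription factor of maturing cortical neurons, stood at 369.6, 681 and 1031 CPM in cortex and 43.0, 82.0 and 93.9 CPM in hippocampus. Its groups were separate in all 6 mice, with the smallest adjusted p of the genes named here (4.95e-07) and a difference of -3.21 ± 0.08. Id2, Lmo3 and Tenm3 were lower, at -1.65 ± 0.13, -1.82 ± 0.15 and -1.77 ± 0.15 (adjusted p = 3.93e-05, 5.68e-05 and 7.10e-05), each without overlap. The 4 higher were Nr2f2 at 1.55 ± 0.16, Rora at 0.44 ± 0.15, Nr2f1 at 0.36 ± 0.10 and Pax6 at 0.21 ± 0.07 (adjusted p = 1.52e-04, 0.0553, 0.0252 and 0.0463). Nr2f2, a nuclear receptor high in the medial and caudal pallium, had groups that did not overlap. The calls on Rora and Pax6 were each lost on leaving out any of 3 single mice.

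**Figure D2:**
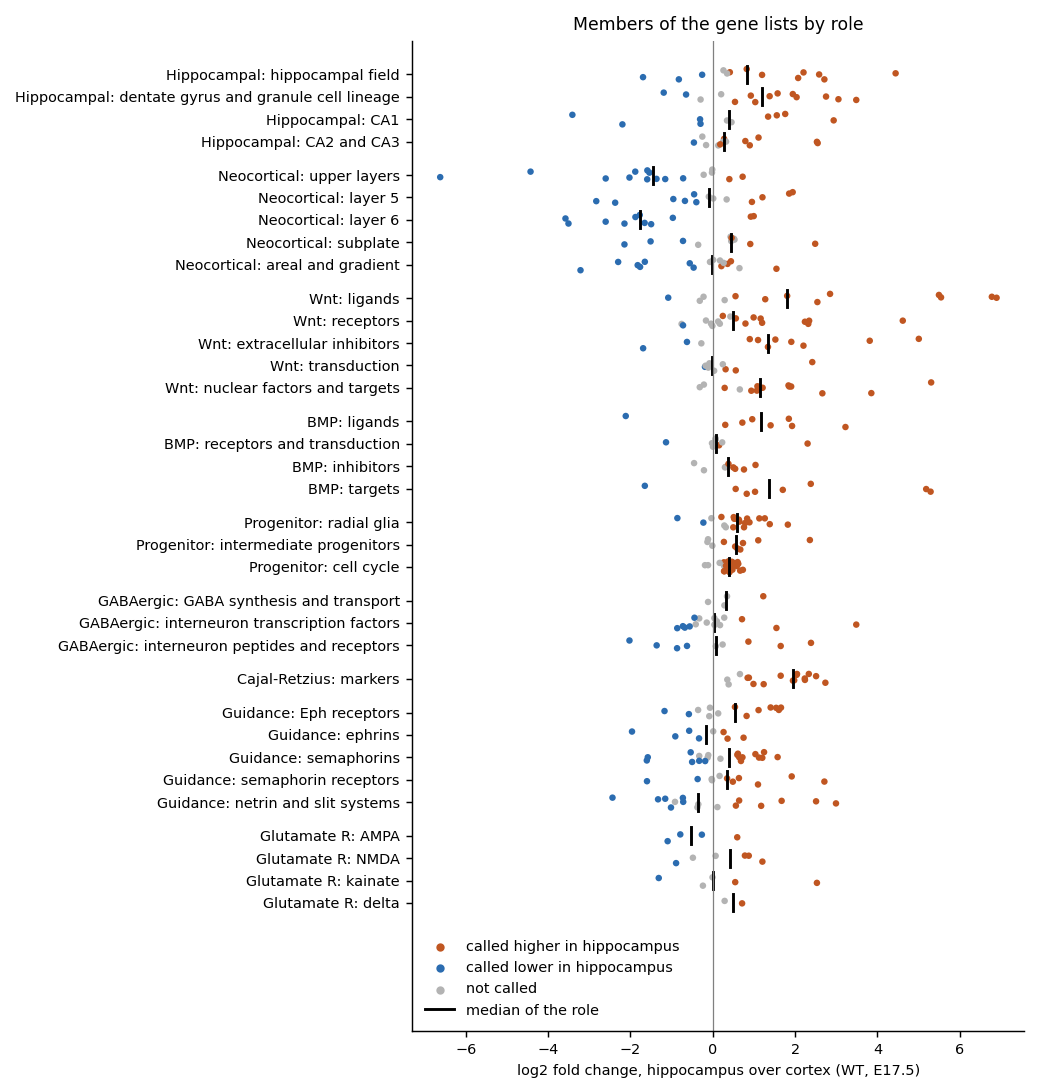
Differences of hippocampus over cortex (log2 fold change, x axis) for the tested members of 9 gene lists, divided by role on the y axis. Each dot is a gene, coloured by its call, and the black bar is the median of the role: the bars of upper-layer and layer 6 genes lie at -1.45 and -1.77, and those of Cajal-Retzius markers and Wnt ligands at 1.95 and 1.81.

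Wnt pathway genes were raised in hippocampus at the level of ligands, inhibitors and targets. Wnt ligands bind Frizzled receptors and stabilise beta-catenin, which with Tcf and Lef factors turns on target genes, some of which feed back on the pathway. Of 79 genes listed 66 were tested, and 13 did not pass the filter on low counts. Of the 66, 41 were called higher, 5 lower and 20 were not called, with a median of 0.92. Beside these stand 25.4% called higher and 19.0% lower over all genes tested. Of the 66 Wnt genes tested, 31 were called higher by at least 2-fold, against 8.20% of all genes tested.

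Among ligands and R-spondins, 9 of 13 tested were higher and 1 lower (median 1.81), against 25.4% higher and 19.0% lower over all genes tested. Wnt3a, a hem ligand required for the hippocampus to form, lies at chr11:59248033-59290752 and stood at 0, 0.0182 and 0.284 CPM in cortex and 4.96, 5.90 and 14.6 CPM in hippocampus. Wnt8b, which marks the medial pallium, lies at chr19:44493472-44514273 and stood at 0, 0.0729 and 1.74 CPM in cortex and 16.4, 24.1 and 36.5 CPM in hippocampus. Wnt2b, another hem ligand, stood at 0.109, 0.327 and 0.656 CPM in cortex and 11.3, 16.8 and 26.8 CPM in hippocampus. The highest cortical library was below the lowest hippocampal one for all 3, with differences of 6.89 ± 0.45, 6.78 ± 0.63 and 5.54 ± 0.32 (adjusted p = 1.84e-05, 1.03e-04 and 1.01e-05). These folds rest on few cortical reads, 12 for Wnt3a and 57 for Wnt8b over the 6 libraries, and so depend on the prior count of the fit. Most of those reads came from mouse 4, and without this mouse the differences became 7.76 for Wnt3a and 8.64 for Wnt8b. Rspo1, an enhancer of Wnt signalling, stood at 0.109, 0.177 and 0.925 CPM in cortex and 6.71, 9.54 and 28.8 CPM in hippocampus, and Wnt5a, which acts largely outside beta-catenin, at 10.7, 15.5 and 20.9 CPM in cortex and 59.0, 79.9 and 131 CPM in hippocampus. Neither overlapped (differences 5.49 ± 0.25 and 2.54 ± 0.11, adjusted p = 4.15e-06 and 2.84e-06). Wnt7b went the other way: it stood at 121, 136 and 225 CPM in cortex and 41.7, 71.0 and 105 CPM in hippocampus and was lower in hippocampus without overlap (difference -1.08 ± 0.10, adjusted p = 9.40e-05). Its relative Wnt7a was not called, at 22.1, 26.7 and 31.9 CPM in cortex and 16.8, 24.4 and 26.6 CPM in hippocampus (adjusted p = 0.295).

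Receptor genes were higher for 10 of 18 and lower for 1 (median 0.49). Beside this and the count of inhibitors below stand 25.4% higher and 19.0% lower over all genes tested. Fzd10, a Frizzled receptor of the dorsal midline, stood at 0.259, 0.498 and 0.711 CPM in cortex and 6.99, 10.97 and 17.47 CPM in hippocampus. Fzd7 stood at 8.79, 14.5 and 25.0 CPM in cortex and 62.1, 68.9 and 78.0 CPM in hippocampus, and Fzd1 at 48.0, 59.2 and 92.9 CPM in cortex and 113, 127 and 176 CPM in hippocampus. All 3 were higher in every hippocampal library, with differences of 4.61 ± 0.16, 2.24 ± 0.18 and 1.16 ± 0.08 (adjusted p = 1.94e-06, 4.49e-05 and 2.32e-05). Lgr4, a receptor for R-spondins, was higher by 0.99 ± 0.09 without overlap (adjusted p = 7.76e-05). Fzd8 was the lower gene, at -0.72 ± 0.14 with overlapping groups (adjusted p = 0.00428). Extracellular inhibitors were higher for 8 of 11 and lower for 2 (median 1.34). Frzb and Wif1, which bind Wnt proteins, stood at 0.219, 0.733 and 1.05 CPM in cortex and 8.86, 9.80 and 10.4 CPM in hippocampus and, for Wif1, at 0.0364, 0.0797 and 0.239 CPM in cortex and 1.87, 3.26 and 6.54 CPM in hippocampus. Their groups were separate, with differences of 3.81 ± 0.26 and 5.00 ± 0.39 (adjusted p = 2.25e-05 and 4.23e-05), with 20 cortical reads in all for Wif1. Apcdd1, a membrane-bound antagonist, and Draxin, a secreted antagonist that also guides axons, were higher by 1.52 ± 0.14 and 1.10 ± 0.08 (adjusted p = 9.90e-05 and 2.35e-05), each without overlap. The secreted antagonists Sfrp1 and Sfrp2 were lower. Sfrp1 stood at 84.1, 96.0 and 159 CPM in cortex and 18.6, 36.8 and 43.8 CPM in hippocampus, without overlap and with a difference of -1.69 ± 0.25 (adjusted p = 0.00109), and Sfrp2 differed by -0.63 ± 0.12 with overlap (adjusted p = 0.0051).

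Of the shared machinery, 3 of 10 genes were higher and 1 lower (median -0.02), beside 25.4% higher and 19.0% lower over all genes tested. Wls, which carries Wnt proteins to the cell surface, stood at 9.44, 11.1 and 11.8 CPM in cortex and 47.3, 57.8 and 71.1 CPM in hippocampus. Its libraries were separate, with a difference of 2.42 ± 0.11 (adjusted p = 3.49e-06). Porcn, which attaches the lipid that Wnt proteins need, was higher by 0.56 ± 0.06, Ctnnb1, which encodes beta-catenin, by 0.31 ± 0.09, and Gsk3a, a kinase of its destruction complex, was lower, at -0.19 ± 0.07 (adjusted p = 2.60e-04, 0.0227 and 0.0783). The call on Gsk3a was lost on leaving out any of 5 single mice. Nuclear factors and targets were higher for 11 of 14 and lower for none (median 1.15). Axin2, a feedback inhibitor and widely used reporter of beta-catenin activity, stood at 18.1, 21.7 and 26.99 CPM in cortex and 59.2, 73.5 and 123 CPM in hippocampus. Nkd1, an inhibitor of Dishevelled, stood at 6.63, 8.90 and 13.4 CPM in cortex and 24.7, 29.8 and 56.3 CPM in hippocampus. Rnf43, a ligase that removes Frizzled from the membrane, stood at 0.364, 0.665 and 0.832 CPM in cortex and 6.46, 8.87 and 13.9 CPM in hippocampus, and the transcription factor Sp5 at 0.0729, 0.154 and 0.605 CPM in cortex and 4.48, 6.80 and 16.6 CPM in hippocampus. In all 4 each hippocampal library exceeded each cortical one, and the fitted folds were 3.62 for Axin2, 3.74 for Nkd1, 14.4 for Rnf43 and 39.5 for Sp5 (adjusted p = 6.15e-06, 7.18e-06, 9.86e-06 and 1.43e-05).

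**Figure D3:**
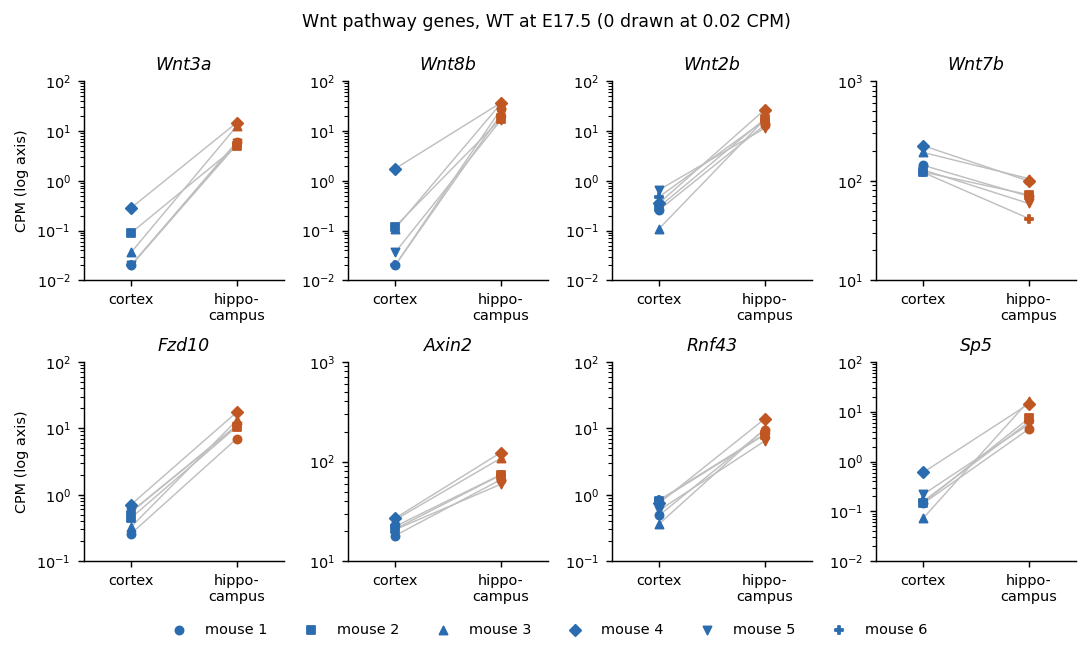
Levels of 8 Wnt pathway genes in each of the 6 WT mice at E17.5, in CPM on a log axis, with a value of 0 drawn at 0.02 CPM. Each symbol is a mouse and grey lines join its cortex and hippocampus: 7 of the genes were higher in every hippocampal library than in any cortical one, and Wnt7b was lower.

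Because these 4 feedback genes were separate between the regions, their promoters are shown as the 250 bases before the RefSeq start on GRCm38.p6, read 5′ to 3′ on the plus strand, which is the strand of all 4 genes. Capitals mark CTTTGAA or CTTTGAT, which are among the sequences bound by Tcf and Lef factors, searched on either strand. Other sequences that these factors bind were not searched. The windows are chr11:108920099-108920348 for Axin2, chr8:88527383-88527632 for Nkd1, chr11:87662837-87663086 for the first start of Rnf43 and chr2:70474673-70474922 for Sp5.
Axin2: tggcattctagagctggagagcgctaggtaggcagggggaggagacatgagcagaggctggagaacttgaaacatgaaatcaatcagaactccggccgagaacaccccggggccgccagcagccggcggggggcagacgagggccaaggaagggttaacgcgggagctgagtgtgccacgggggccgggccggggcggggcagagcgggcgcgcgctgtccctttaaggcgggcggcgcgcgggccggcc
Nkd1: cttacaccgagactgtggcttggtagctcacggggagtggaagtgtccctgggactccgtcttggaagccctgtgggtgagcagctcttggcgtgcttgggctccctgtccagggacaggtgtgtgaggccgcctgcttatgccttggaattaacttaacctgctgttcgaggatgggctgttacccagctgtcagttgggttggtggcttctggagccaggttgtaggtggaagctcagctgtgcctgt
Rnf43: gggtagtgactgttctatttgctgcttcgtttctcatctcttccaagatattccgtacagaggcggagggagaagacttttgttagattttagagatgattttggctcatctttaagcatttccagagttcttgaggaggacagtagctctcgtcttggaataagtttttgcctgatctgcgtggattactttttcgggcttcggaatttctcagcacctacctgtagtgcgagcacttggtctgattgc
Sp5: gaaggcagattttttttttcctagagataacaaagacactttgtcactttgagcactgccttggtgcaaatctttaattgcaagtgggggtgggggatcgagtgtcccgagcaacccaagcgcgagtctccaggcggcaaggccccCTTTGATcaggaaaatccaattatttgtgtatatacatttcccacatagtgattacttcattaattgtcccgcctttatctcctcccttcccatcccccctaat
Of the 4 windows only that of Sp5 held a match, CTTTGAT, whose first base lies 104 bases before the start. The second start of Rnf43 held none either. A match was present in 7.48% of all 32851 promoters of this length, in 6 of 64 promoters (9.38%) of the 53 listed Wnt genes that could be matched, and in 2 of 18 (11.1%) of the nuclear factors and targets. A match describes these letters, and its absence says only that they are not in this window.

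BMP pathway genes were also mostly higher, with 22 of 33 tested called higher, 3 lower and 8 not called (median 0.54), where 25.4% of all genes tested were called higher. BMPs act through Smad proteins and switch on Id and Msx genes. Ligands were higher for 7 of 8 and lower for 1. Bmp6 and Bmp7, products of the hem and choroid plexus, stood at 0.288, 0.546 and 1.52 CPM in cortex and 4.00, 5.31 and 10.4 CPM in hippocampus and, for Bmp7, at 2.42, 4.14 and 4.75 CPM in cortex and 11.1, 12.1 and 20.5 CPM in hippocampus. Both were separate, with differences of 3.22 ± 0.21 and 1.85 ± 0.14 (adjusted p = 1.97e-05 and 3.54e-05), and Gdf5 was higher by 1.4046 ± 0.27 (adjusted p = 0.00449). Bmp3, an atypical BMP that antagonises others, was lower at 11.4, 15.8 and 17.9 CPM in cortex and 2.99, 3.45 and 4.10 CPM in hippocampus (difference -2.11 ± 0.11, adjusted p = 6.15e-06). Of 8 receptors and Smads, Smad9 was higher by 2.30 ± 0.24, Bmpr1a by 0.15 ± 0.06 and Bmpr1b was lower, at -1.14 ± 0.25 (adjusted p = 1.74e-04, 0.0792 and 0.00826). The call on Bmpr1a was lost under 11 of 15 other settings. Inhibitors were higher for 6 of 9, among them Chrdl1 at 1.04 ± 0.16 and Twsg1 at 0.38 ± 0.05 (adjusted p = 0.00145 and 7.37e-04). Targets were higher for 7 of 8 (median 1.36). Id3, which blocks bHLH factors, stood at 5.87, 11.03 and 12.5 CPM in cortex and 43.7, 53.1 and 63.5 CPM in hippocampus, and Msx1, a homeobox gene of the midline, at 0.0729, 0.117 and 0.438 CPM in cortex and 3.17, 6.22 and 16.3 CPM in hippocampus. Both were separate, with differences of 2.38 ± 0.15 and 5.18 ± 0.43 (adjusted p = 1.79e-05 and 5.63e-05). Msx2 was at 0 in most cortical libraries, with 4 reads over all 6, and reached 0.636, 1.05 and 1.398 CPM in hippocampus (adjusted p = 1.12e-04). The target that fell was Id2, which also belongs to the areal genes above, at 211 to 283 CPM in cortex and 57.4 to 96.7 CPM in hippocampus. The summed level of the targets was therefore not raised, at 286 to 383 CPM in cortex and 247 to 348 CPM in hippocampus. Summed over the whole BMP list the regions overlapped, at 1107 to 1538 CPM in cortex and 1130 to 1411 CPM in hippocampus.

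Markers of tissue next to the hippocampus were higher too, on a list that overlaps those of the Wnt and BMP genes. All 15 tested markers of the cortical hem and fimbria were called higher (median 3.22), against 25.4% of all genes tested. Of the 15, 12 are also on the Wnt or BMP list, so their direction is largely shared by construction. The summed level of the hem and fimbria list was 135 to 170 CPM in cortex and 318 to 649 CPM in hippocampus. Lmx1a, the LIM homeobox gene that defines the hem and is in neither pathway list, stood at 0.158, 0.339 and 0.960 CPM in cortex and 9.25, 13.1 and 28.0 CPM in hippocampus, without overlap and with a difference of 5.31 ± 0.25 (adjusted p = 4.78e-06). How far these markers account for the Wnt and BMP values was not tested.

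Choroid plexus markers were present in hippocampal libraries in very unequal amounts. Of 20 listed, 11 were tested and 9 were called higher (median 4.93), against 25.4% of all genes tested. Their summed level was 7.22 to 13.9 CPM in cortex and 35.9 to 68.1 CPM in hippocampus of mice 1, 3, 4 and 5, with 205 CPM in mouse 6 and 5388 CPM in mouse 2. Ttr, the thyroxine carrier that choroid plexus makes in large amounts, stood at 0.0729, 0.863 and 2.45 CPM in cortex and 2.75, 23.99 and 4773 CPM in hippocampus. Folr1, a folate receptor, stood at 0, 0.0538 and 0.0897 CPM in cortex and 1.12, 1.33 and 54.0 CPM in hippocampus, and Clic6, a chloride channel protein, at 0.0729, 0.112 and 0.239 CPM in cortex and 2.08, 2.94 and 118 CPM in hippocampus. All 3 were higher in 6 of 6 mice without overlap (differences 6.77 ± 1.16, 7.08 ± 0.67 and 6.59 ± 0.65, adjusted p = 0.00243, 1.14e-04 and 1.42e-04). Without mouse 2 these differences became 5.12, 4.92 and 4.82, and without mice 2 and 6 they became 4.34, 4.43 and 4.40, so each stayed called. Ttr also moved to 7.57 without mouse 4 and 7.41 without mouse 5. Otx2, a homeobox gene of the choroid plexus and hem, stood at 0.0365, 0.207 and 0.747 CPM in cortex and 5.19, 8.58 and 38.4 CPM in hippocampus, and its difference of 5.49 ± 0.43 became 6.16 without mouse 4 and 4.90 without mice 2 and 6. Enpp2 was higher by 2.09 ± 0.32 (adjusted p = 4.13e-05 for Otx2 and 0.00129 for Enpp2). The marker Cox8b was at 0 in all 12 libraries. With all genes kept, 17 choroid plexus markers were called higher, and with a filter of 1 CPM 5 were. The part of choroid plexus in other differences was not tested. Without mice 2 and 6, 38 of the Wnt genes were called higher, against 41 with them. That fit called 3175 of 16781 genes tested higher. Its hippocampal libraries still held 35.9 to 68.1 CPM of choroid plexus markers, so these counts do not give the part of choroid plexus in the Wnt values.

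Other supporting tissues were likewise higher in hippocampus, where 25.4% of all genes tested were called higher. Ependymal and ciliary markers were higher for 9 of 10 tested (median 2.54), from 14.01 to 28.7 CPM in cortex and from 38.3 to 169.5 CPM in hippocampus. Foxj1, the master factor of motile cilia, stood at 3.49, 4.98 and 6.31 CPM in cortex and 16.9, 23.3 and 49.8 CPM in hippocampus and was higher by 2.4997 ± 0.26 (adjusted p = 1.69e-04). With the 1 CPM filter 4 ependymal markers were called. Meningeal and fibroblast markers were higher for 15 of 16 (median 1.99, or 1.27 without mice 2 and 6), at 85.6 to 162 CPM in cortex and 266 to 676 CPM in hippocampus. Col3a1, a fibrillar collagen, stood at 4.96, 6.92 and 17.3 CPM in cortex and 8.21, 38.1 and 108 CPM in hippocampus, with overlap, and its difference of 2.03 ± 0.40 (adjusted p = 0.00504) became 1.29 without mice 2 and 6. Endothelial markers were higher for 12 of 14 (median 0.50), and for 8 without mice 2 and 6. The fit without these mice called 3175 of 16781 genes higher. The receptor gene Kdr was higher by 1.16 ± 0.09 without overlap and the tight junction gene Cldn5 by 0.51 ± 0.10 with overlap (adjusted p = 4.49e-05 and 0.005). Microglial and macrophage markers were higher for 12 of 15 (median 0.96). The microglial receptors Cx3cr1 and Csf1r stood at 6.28, 7.47 and 9.28 CPM in cortex and 13.2, 14.5 and 18.6 CPM in hippocampus and, for Csf1r, at 8.59, 10.7 and 12.6 CPM in cortex and 14.5, 19.9 and 23.3 CPM in hippocampus. Both were separate (differences 0.97 ± 0.10 and 0.85 ± 0.14, adjusted p = 1.98e-04 and 0.00199). No erythroid marker of 7 tested was called by edgeR or DESeq2 (median -0.05), and their smallest unadjusted p was 0.301.

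**Figure D4:**
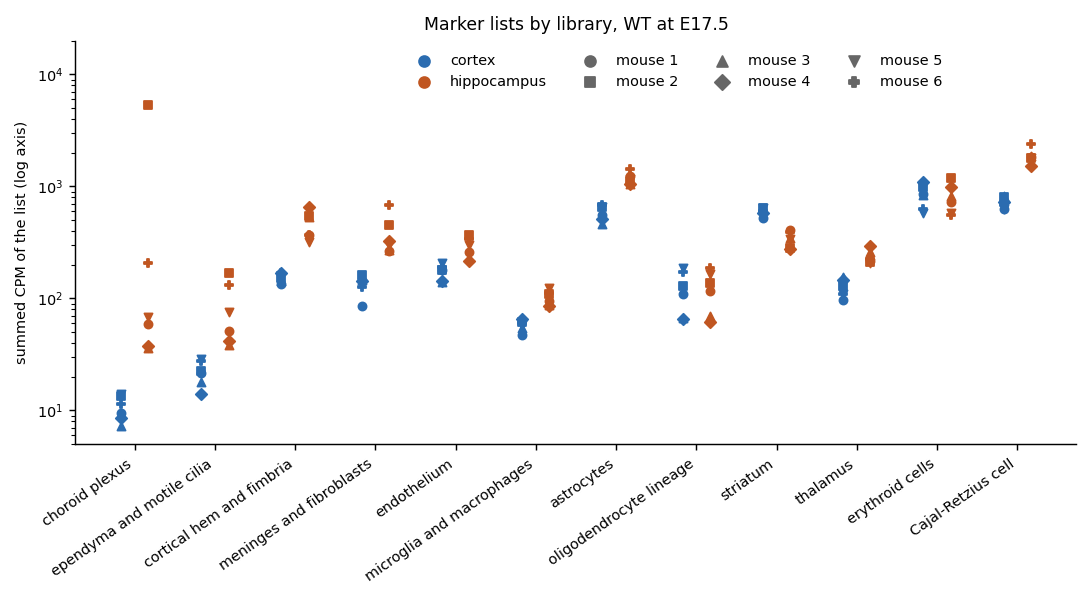
Summed CPM of 12 marker lists in each library (log axis), cortex and hippocampus side by side, with a symbol for each of the 6 mice. The choroid plexus list reaches 5388 CPM in the hippocampus of mouse 2 and 205 CPM in that of mouse 6, against 7.22 to 13.9 CPM in cortex, while the erythroid list overlaps between the regions.

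Astrocyte markers were higher in hippocampus for 9 of 12 and lower for 2 (median 1.33), against 25.4% higher and 19.0% lower over all genes tested. Their summed levels were 461 to 686 CPM in cortex and 1052 to 1419 CPM in hippocampus. Gfap, the intermediate filament of astrocytes and of some progenitors, stood at 1.42, 6.66 and 10.8 CPM in cortex and 19.1, 46.7 and 72.5 CPM in hippocampus. Slc1a2, a glutamate transporter, stood at 42.8, 69.8 and 75.8 CPM in cortex and 247, 314 and 576 CPM in hippocampus, and Gja1, a gap junction protein, at 10.98, 15.2 and 22.7 CPM in cortex and 61.6, 73.4 and 94.0 CPM in hippocampus. The regions were separate for all 3, with differences of 3.04 ± 0.16, 2.42 ± 0.20 and 2.28 ± 0.13 (adjusted p = 7.67e-06, 5.56e-05 and 9.64e-06), and also for Apoe, at 1.62 ± 0.10 (adjusted p = 1.39e-05). Sparcl1 was lower, at -0.90 ± 0.13 and Aldh1l1 at -0.66 ± 0.19 (adjusted p = 8.33e-04 and 0.0282), and Aldh1l1 was not called without the mouse block (adjusted p = 0.439). Oligodendrocyte lineage markers had no common direction (median -0.10). Bcas1, Mag, Cnp and Cspg4 were higher by 1.01 ± 0.24, 0.98 ± 0.22, 0.79 ± 0.15 and 0.34 ± 0.10, and Olig2, Olig1 and Mbp lower, at -0.66 ± 0.20, -0.40 ± 0.17 and -0.36 ± 0.11. The calls on Cspg4, Olig1 and Olig2 were lost without the mouse block, and that on Mbp without mouse 5. Pdgfra, the receptor of oligodendrocyte precursors, stood at 8.82, 25.4 and 49.4 CPM in cortex and 7.76, 31.6 and 57.6 CPM in hippocampus and was not called.

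Progenitor genes were raised by small amounts. Of 60 tested, 47 were called higher, 2 lower and 11 were not called (median 0.46), where 25.4% of all genes tested were called higher. This count depends on the pairing of libraries by mouse. Without the mouse block 17 of the 60 were called higher and 1 lower, a share of 28.3% higher, against 21.5% of all genes in that fit. Radial glial genes were higher for 15 of 20 and lower for Ptprz1 and Ddah1, at -0.86 ± 0.19 and -0.23 ± 0.09. Hopx, a marker of outer radial glia and of dentate progenitors, stood at 8.39, 11.4 and 14.6 CPM in cortex and 35.3, 39.4 and 47.7 CPM in hippocampus. Its libraries were separate (difference 1.82 ± 0.14, adjusted p = 4.49e-05). Vim, an intermediate filament, was higher by 1.26 ± 0.09, the glutamate transporter Slc1a3 by 0.89 ± 0.07 and Mfge8 by 0.65 ± 0.07 (adjusted p = 2.88e-05, 4.49e-05 and 1.66e-04). Slc1a3, Mfge8 and Hopx are also found in astrocytes. Genes of intermediate progenitors were higher for 7 of 10, with none called lower. Mfap4, an extracellular matrix protein, stood at 5.36, 8.38 and 24.3 CPM in cortex and 33.3, 50.0 and 86.7 CPM in hippocampus without overlap (difference 2.36 ± 0.15, adjusted p = 1.69e-05). Neurog2, the proneural factor of the pallium, stood at 21.2, 35.6 and 98.5 CPM in cortex and 33.4, 55.2 and 118 CPM in hippocampus. Its groups overlapped widely, yet hippocampus was higher in each of the 6 mice (difference 0.60 ± 0.10, adjusted p = 0.00189, and 0.435 without the mouse block). Gadd45g and Btg2 were higher by 1.10 ± 0.10 and 0.67 ± 0.06. Cell cycle genes were higher for 25 of 30, none by 2-fold (median 0.40). The replication helicase genes Mcm6 and Mcm2 and the kinetochore gene Cenpf were higher by 0.73 ± 0.06, 0.67 ± 0.08 and 0.62 ± 0.10 (adjusted p = 6.68e-05, 4.74e-04 and 0.0021), in all 6 mice and with overlapping groups. Btg2, Mcm2 and Cenpf were not called without the mouse block (adjusted p = 0.131, 0.117 and 0.124).

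Cajal-Retzius markers were higher for 14 of 17 and lower for none (median 1.95), where 25.4% of all genes tested were called higher. These early-born cells at the surface of the cortex secrete reelin and guide layering, and they persist along the hippocampal fissure. Reln itself stood at 463, 482 and 554 CPM in cortex and 842, 1216 and 1353 CPM in hippocampus. The groups were separate, and the fitted fold was 2.36 (adjusted p = 3.86e-05). Trp73, a p53 relative of hem-derived Cajal-Retzius cells, stood at 6.27, 8.87 and 13.2 CPM in cortex and 33.8, 45.7 and 53.3 CPM in hippocampus, and the bHLH gene Nhlh2 at 7.99, 16.1 and 30.8 CPM in cortex and 77.1, 84.8 and 126 CPM in hippocampus. Neither overlapped (differences 2.23 ± 0.15 and 2.51 ± 0.14, adjusted p = 2.03e-05 and 1.06e-05). Zic1, which is also on the meningeal list, was higher by 1.95 ± 0.44 (adjusted p = 0.00927). Without mice 2 and 6, 13 of the markers were called higher, in a fit that called 3175 of 16781 genes tested higher.

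Genes of GABAergic interneurons, which migrate into both regions from the ventral telencephalon, were called in both directions: 7 of 30 were higher, 9 lower and 14 not called (median 0.04). Over all genes tested 25.4% were called higher and 19.0% lower, so the share of members called higher was near that of all genes. The GABA-synthesising enzymes Gad1 and Gad2 were not called, at 21.8, 33.3 and 45.9 CPM in cortex and 18.7, 40.0 and 115 CPM in hippocampus and, for Gad2, at 19.6, 26.5 and 29.4 CPM in cortex and 11.8, 23.8 and 58.2 CPM in hippocampus. The groups covered each other, with differences of 0.28 ± 0.27 and -0.11 ± 0.27. Lhx6, a transcription factor of interneurons born in the medial ganglionic eminence, stood at 58.4, 63.5 and 70.4 CPM in cortex and 28.0, 45.6 and 54.8 CPM in hippocampus. It was lower in hippocampus without overlap (difference -0.56 ± 0.12, adjusted p = 0.00826), and the factors Maf and Satb1 were lower, at -0.73 ± 0.15 and -0.86 ± 0.19 with overlap. The higher factors were Prox1 and Nr2f2, described above, and Npas3 at 0.71 ± 0.09. Of peptides and receptors, Npy, Ackr3, Sst and Erbb4 were lower, at -2.02 ± 0.19, -1.36 ± 0.20, -0.87 ± 0.26 and -0.63 ± 0.08 (adjusted p = 1.03e-04, 0.00113, 0.0324 and 5.68e-04). Sst, the peptide somatostatin, was not called without the mouse block (adjusted p = 0.111). Calb2, which encodes calretinin and also marks Cajal-Retzius and thalamic cells, Cxcr4, the receptor that holds migrating cells in the marginal zone, and Cck were higher, by 2.39 ± 0.18, 1.65 ± 0.14 and 0.87 ± 0.20 (adjusted p = 3.30e-05, 7.82e-05 and 0.00931). Cck lost its call without the mouse block (adjusted p = 0.132).

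Axon guidance genes differed in both directions, with 32 of 68 tested higher, 20 lower and 16 not called (median 0.15), against 25.4% called higher and 19.0% lower over all genes tested. Eph receptors were higher for 7 of 13 and lower for 2. Epha4, a receptor that repels axons, stood at 272, 302 and 447 CPM in cortex and 793, 1015 and 1216 CPM in hippocampus, and Ephb3 at 11.8, 12.9 and 16.7 CPM in cortex and 30.7, 38.1 and 54.7 CPM in hippocampus. Both were separate (differences 1.66 ± 0.12 and 1.61 ± 0.12, adjusted p = 3.27e-05 and 3.29e-05). Epha3 was lower, at -1.17 ± 0.09 without overlap and Epha5 at -0.58 ± 0.21 with overlap (adjusted p = 5.03e-05 and 0.0584), and the call on Epha5 was lost without mouse 3 or 4. Of the 8 ephrins, the ligands of these receptors, Efnb2, Efnb1, Efna2 and Efna3 were lower, at -1.96 ± 0.38, -0.91 ± 0.12, -0.57 ± 0.09 and -0.33 ± 0.10. Efna1, Efna4 and Efnb3 were higher, at 0.75 ± 0.17, 0.36 ± 0.11 and 0.26 ± 0.10. The calls on Efna3, Efna4 and Efnb3 were lost without the mouse block.

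Semaphorins were higher for 10 of 20 and lower for 6. Sema3f and Sema3a, repellents that bind Nrp2 and Nrp1, stood at 42.0, 46.2 and 52.8 CPM in cortex and 12.1, 15.9 and 17.3 CPM in hippocampus and, for Sema3a, at 45.2, 54.8 and 64.1 CPM in cortex and 13.9, 19.9 and 21.3 CPM in hippocampus. Both were lower in every hippocampal library, with differences of -1.60 ± 0.08 and -1.58 ± 0.13 (adjusted p = 6.50e-06 and 5.27e-05). Their receptors went the other way: beside Nrp2, Nrp1 stood at 215, 292 and 377 CPM in cortex and 476, 654 and 725 CPM in hippocampus, without overlap and with a difference of 1.10 ± 0.14 (adjusted p = 4.84e-04). Among plexins, which pass the signal on, Plxna4 was lower, at -1.60 ± 0.17 without overlap and Plxna2 at -0.37 ± 0.15 with overlap (adjusted p = 2.11e-04 and 0.093), and the call on Plxna2 was lost without mouse 2, 3, 4 or 5. Of netrin and slit genes and their receptors, 6 of 16 were higher and 6 lower. Slit3, a repellent ligand, stood at 2.88, 8.52 and 13.2 CPM in cortex and 48.9, 54.9 and 73.7 CPM in hippocampus, and Robo2, a receptor for slits, at 289, 314 and 517 CPM in cortex and 49.8, 61.9 and 77.4 CPM in hippocampus. They were separate in opposite directions, with differences of 2.99 ± 0.21 and -2.44 ± 0.15 (adjusted p = 2.38e-05 and 1.41e-05). Slit2 and Ntn1, the attractant netrin-1, were higher by 1.67 ± 0.14 and 2.51 ± 0.21, and the netrin receptors Unc5d and Unc5c were lower, at -1.15 ± 0.22 and -1.02 ± 0.14 (adjusted p = 5.67e-05, 5.56e-05, 0.0041 and 6.75e-04).

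Ionotropic glutamate receptor subunits were divided as well, with 7 of 17 higher, 5 lower and 5 not called (median 0.07), against 25.4% called higher and 19.0% lower over all genes tested. Without the mouse block 5 were higher and 3 lower, where all genes gave 21.5% and 15.4%, so these counts are near the background. Of AMPA subunits, Gria2, which makes the channel impermeable to calcium, stood at 579, 801 and 964 CPM in cortex and 317, 518 and 566 CPM in hippocampus and Gria1 at 129, 156 and 188 CPM in cortex and 147, 248 and 358 CPM in hippocampus. Gria2 was lower without overlap (difference -0.79 ± 0.11, adjusted p = 7.59e-04), while Gria1 was higher in 5 of 6 mice (difference 0.59 ± 0.16, adjusted p = 0.0188). Gria3 and Gria4 were lower, at -1.10 ± 0.15 and -0.27 ± 0.07. Of NMDA subunits, Grin2a, Grin2d and Grin2c were higher, by 1.21 ± 0.10, 0.87 ± 0.28 and 0.78 ± 0.18, and Grin3a was lower, at -0.89 ± 0.23 (adjusted p = 7.24e-05, 0.038, 0.011 and 0.0179). Grin2b, the main partner subunit before birth, stood at 197, 471 and 649 CPM in cortex and 167, 285 and 594 CPM in hippocampus and was not called (difference -0.48 ± 0.23, adjusted p = 0.135). The calls on Gria4, Grin2a and Grin3a were lost without the mouse block, and that on Grin2d without mouse 1. Of kainate and delta subunits, Grik4 was described with CA3, Grik2 was higher by 0.55 ± 0.13, and Grik3 was lower, at -1.31 ± 0.17 (adjusted p = 0.0104 and 6.58e-04).

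Markers of neighbouring brain regions gave a mixed picture. Beside each count in this paragraph stand the shares over all genes tested, 25.4% called higher and 19.0% lower. Striatal markers were higher for 6 of 17 and lower for 5 (median 0.04). The higher ones included Zfp503, Rxrg, Ebf1 and Penk. The summed level of the striatal list was higher in cortex, at 522 to 644 CPM against 275 to 408 CPM. Much of this sum is Meis2, which alone stood at 250 to 353 CPM in cortex and 78.5 to 119 CPM in hippocampus. Drd1 and Ppp1r1b, the dopamine D1 receptor and its effector DARPP-32, stood at 10.6, 14.9 and 18.2 CPM in cortex and 1.27, 2.73 and 3.60 CPM in hippocampus and, for Ppp1r1b, at 8.44, 16.6 and 22.9 CPM in cortex and 0.699, 3.44 and 6.14 CPM in hippocampus. Both were lower without overlap (differences -2.57 ± 0.21 and -2.39 ± 0.44, adjusted p = 5.63e-05 and 0.00367). Pde10a was lower, at -0.19 ± 0.07, and its call was lost without the mouse block. Deep-layer cortical neurons also express several of these genes. Of 8 thalamic markers tested, Lhx9, Calb2 and Ror2 were higher and Foxp2 and Rgs16 lower, Ror2 at 0.56 ± 0.13 and Rgs16 at -0.51 ± 0.11. Slc17a6 and Tcf7l2 were not called. The summed level of the thalamic list was 95.9 to 154 CPM in cortex and 209 to 295 CPM in hippocampus. Lhx9 alone stood at 1.35 to 11.2 CPM in cortex and 61.8 to 122 CPM in hippocampus. The share of striatal or thalamic tissue in either region was not tested. Of 10 immediate early genes, which neuronal activity and tissue handling both induce, Atf3, Arc, Ier2, Fos and Btg2 were higher and Dusp1 lower. Their differences were 1.18 ± 0.26, 1.05 ± 0.17, 0.89 ± 0.13, 0.86 ± 0.18, 0.67 ± 0.06 and -0.49 ± 0.14.

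Genes that are not protein-coding made up 17.2% of genes tested, 9.72% of those at least 2-fold higher in hippocampus (134 of 1378) and 35.9% of those at least 2-fold lower (187 of 521). The 187 included 95 transcripts of the annotation's unverified class TEC, 35 long intergenic RNAs, 11 sense intronic RNAs and 10 snoRNAs. In the Cul3+/- embryos the share among lower genes was 21.6% and among higher genes 15.04%. Protein-coding genes held 85.2% to 86.0% of reads in cortex and 86.2% to 88.4% in hippocampus, and the part of this difference in the gene counts was not tested.

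The same regions of 6 Cul3+/- embryos, which are separate animals, were fitted on their own. Cul3 itself was not called between the WT regions and stood at 195, 203 and 208 CPM in cortex and 183, 201 and 209.9 CPM in hippocampus (difference -0.02 ± 0.06, adjusted p = 0.856). In Cul3+/- embryos 31.8% of 16870 genes were called higher in hippocampus and 30.7% lower. Of the 1378 genes at least 2-fold higher in WT, 1351 were tested in Cul3+/- and 1330 of them were called higher (98.4%). Of the 521 at least 2-fold lower, 499 were tested and 457 were called lower (91.6%). None was called in the opposite direction in either set. The lists of genes called with at least 2-fold shared 1509 genes, which is 79.5% of the WT list and 74.9% of the Cul3+/- list. A test of the difference itself, region by genotype over 17707 genes, called 0 genes (0%) with edgeR's quasi-likelihood test, with 725 genes at an unadjusted p under 0.05. DESeq2 called 0, with 637 at an unadjusted p under 0.05, and edgeR's likelihood ratio test called 3, the predicted genes Gm37137, Gm42443 and Gm44439. In Cul3+/- embryos Pou3f2 differed by -4.53 ± 0.08, Zbtb20 by 2.53 ± 0.13, Prox1 by 3.29 ± 0.13, Wnt3a by 7.47 ± 0.35 and Axin2 by 1.87 ± 0.04. These lie beside WT differences of -4.43 ± 0.17, 2.58 ± 0.25, 3.48 ± 0.25, 6.89 ± 0.45 and 1.86 ± 0.09.

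Whether the regional differences lasted was asked of WT mice at P7 (6 libraries a region) and P35 (5 a region), in a single fit over the 3 ages in which 19530 genes were tested. The difference between the regions changed from E17.5 to P7 for 7892 genes (40.4%) and from E17.5 to P35 for 9201 (47.1%). At P7 hippocampus was higher for 25.3% of genes and lower for 24.8%, and at P35 higher for 24.1% and lower for 22%. Of the 1378 genes that were at least 2-fold higher at E17.5, 847 were called higher at P7, 135 lower and 396 were not called, and at P35 642 were higher and 208 lower. Of the 521 that were lower, 386 were called lower at P7 and 30 higher, and at P35 300 were lower and 59 higher. These genes were chosen for a large difference at E17.5, so a smaller difference at another age is partly given by that choice.

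The E17.5 differences below are those of the 12-library fit, and the others are from the fit over 3 ages. Of all genes at least 2-fold higher at E17.5, 61.5% were called higher at P7 and 46.6% at P35. For all genes at least 2-fold lower, 74.1% were called lower at P7 and 57.6% at P35. Of 27 neocortical genes at least 2-fold lower at E17.5, 25 were called lower at P7 and 22 at P35. Of 21 hippocampal genes at least 2-fold higher, 15 were higher at P7 and 16 at P35, and of 11 Cajal-Retzius markers 10 and 7 were. Of 31 Wnt pathway genes at least 2-fold higher, 13 were higher at P7 and 6 lower, and at P35 9 were higher and 10 lower. Of 9 choroid plexus markers 5 were higher at P7 and 8 at P35. At P7 the shares of hippocampal genes (71.4%) and choroid plexus markers (55.6%) were near the 61.5% of all higher genes. Zbtb20 differed by 2.49 ± 0.20 at P7 and 2.38 ± 0.21 at P35, and Prox1 by 3.25 ± 0.19 and 3.04 ± 0.20, with no change from E17.5 called (adjusted p = 0.933, 0.726, 0.637 and 0.268). Pou3f2 went to -2.10 ± 0.12 and -1.67 ± 0.13, and both changes from E17.5 were called (adjusted p = 6.87e-09 and 5.38e-10). The hem ligand Wnt2b reversed, from 5.54 ± 0.32 at E17.5 to -1.20 ± 0.26 at P7 and -2.07 ± 0.33 at P35 (adjusted p of the change = 6.89e-10 and 2.00e-10). Rspo1 went from 5.49 ± 0.25 to 0.64 ± 0.17 and -2.17 ± 0.18, and Axin2 from 1.86 ± 0.09 to -0.02 ± 0.07 and -0.34 ± 0.07 (adjusted p of the change = 5.13e-10 and 9.01e-13 for Rspo1, 2.49e-10 and 1.76e-11 for Axin2). Wnt8b stood at 6.61 ± 0.96 and 4.99 ± 1.32. Mc4r was lower at E17.5 and P7, at -4.58 ± 0.35 and -1.4019 ± 0.19, and higher at P35, at 1.98 ± 0.22. The CA1 markers parted: Fibcd1 went from 1.55 ± 0.14 to 3.22 ± 0.18 and 4.45 ± 0.21, and Wfs1 from 1.34 ± 0.13 to -0.19 ± 0.07 and 0.00 ± 0.08 (adjusted p of the change = 3.04e-05 and 4.74e-08 for Fibcd1, 2.16e-08 and 8.14e-08 for Wfs1).

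**Figure D5:**
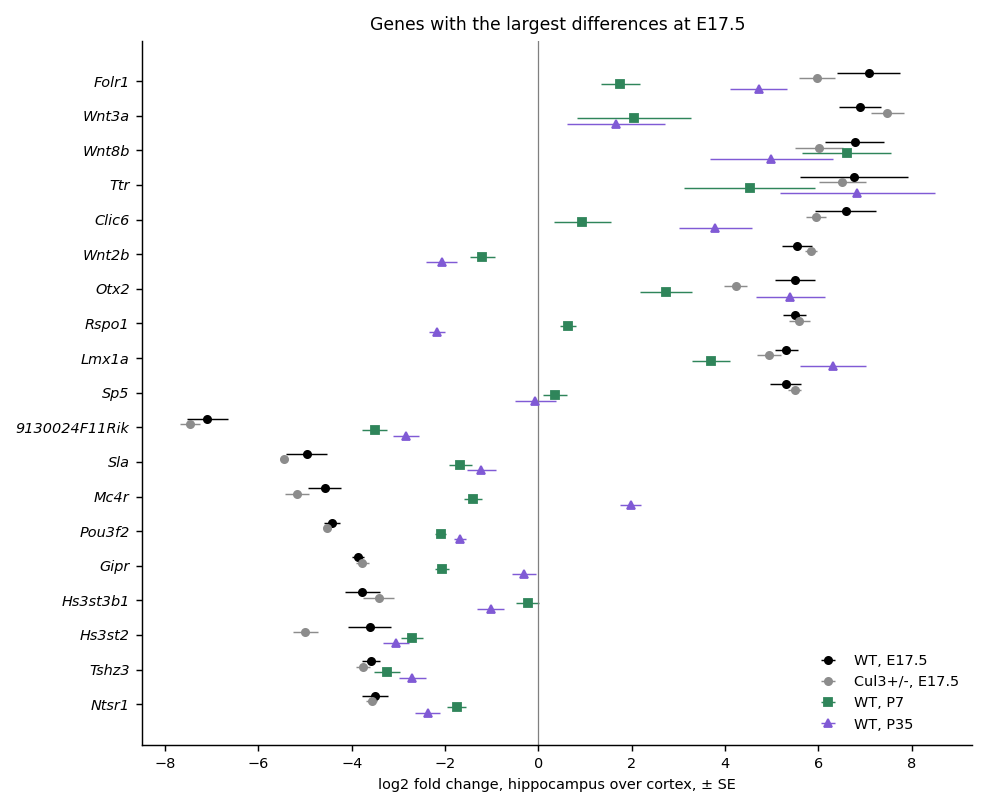
Differences of hippocampus over cortex (log2 fold change ± SE) for genes with the largest differences in WT at E17.5, 10 higher and 9 lower in hippocampus, in WT and Cul3+/- embryos at E17.5 and in WT at P7 and P35. The Cul3+/- values lie on the same side of 0 as the WT values at E17.5 for all 19 genes, while Wnt2b lies below 0 at P7 and P35, Rspo1 lies below 0 at P35 (-2.17) and Mc4r above 0 at P35 (1.98).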

How the data were processed

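Total RNA was depleted of ribosomal RNA, made into stranded libraries and sequenced in pairs on an Illumina HiSeq4000. Per the submitters' processing notes the authors used cutadapt 1.14, STAR 2.5.3a and RSEM 1.3 with GRCm38.p5. The deposited table holds the authors' expected counts (estimated reads per gene, not normalized) for 53465 genes in 108 libraries. 5.76% of values were not whole and were rounded. Symbols, gene types and coordinates were taken from the GRCm38 annotation for 53360 gene identifiers, and the other 105 have no symbol.

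Groups were read from the sample titles. Genes were filtered with edgeR's filterByExpr (minimum count 10, minimum total 15), scaled by the trimmed mean of M-values and fitted with region and mouse in edgeR 4.0.16 (R 4.3.3). The test was the quasi-likelihood F test, two-sided, with Benjamini-Hochberg adjustment over all genes tested and a threshold of 0.1. A prior count of 2 entered the log2 CPM behind the principal components and the correlations between libraries. The fitted fold changes used edgeR's default prior count instead. Both regions came from the same mice per the labels. Deviations from the region means correlated between the libraries of a mouse at 0.105 to 0.539 (median 0.260), and in 6 of 6 mice above 0.1, but in 0 of 6 mice was the own partner the hippocampal library with the highest correlation. Each mouse is a separate embryo, and no pair of the 30 pairs of libraries within a region was a duplicate (chi-square per degree of freedom 9.41 to 134). Alternatives were DESeq2 1.42.0, limma 3.58.1 (voom), edgeR's likelihood ratio test, other scaling and filters, no mouse block, and leaving out mice.

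The Cul3+/- comparison was fitted in the same way, and region by genotype and region by age were interaction terms. A P35 mouse whose labels give conflicting genotypes was left out. At each count the total per library limits the precision, with values under about 1 CPM resting on few reads.

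The members and the gene lists were chosen with earlier results of these data known, so their counts are descriptions. Of 578 symbols on the 21 lists, 576 were found; Ntn3 and Ahsp were not. The genes named are the 10 in each direction with the largest change among called genes that moved alike in all 6 mice and reached a mean of 5 CPM in the higher region, up to 4 called genes a direction in each role of a list by p, up to 2 uncalled genes a role by level, the leading markers of other cell types, Cul3, and every gene of a count of 5 or fewer. Promoters were taken from RefSeq on GRCm38.p6. Some members of these counts are not reported here by name.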

Additional observations from a re-analysis of the deposited data

Results flagged for a closer look

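In a group of 6 libraries, a library stood apart when its gap to the nearest of the others, as a share of the group's range, passed Dixon's 95% critical value. Of 434 groups checked (named genes and summed lists, each region on its own), 35 had such a library, where chance gives about 1 in 20. Of the 35, 7 lay in the hippocampal library of mouse 2, 11 in a library of mouse 4, 9 in mouse 3 and 5 in mouse 6.

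The hippocampal library of mouse 2 was the highest of its group for the choroid plexus genes. Ttr, the thyroxine carrier of the cerebrospinal fluid, was at 4773 CPM, the folate receptor Folr1 at 53.98, the chloride channel protein Clic6 at 118.3, the homeobox factor Otx2 at 38.43 and the lysophospholipase Enpp2 at 101.9 CPM. The choroid plexus list summed to 5388 CPM there. Msx1, a target of BMP signalling, was also highest in that library at 16.29 CPM.

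The cortical library of mouse 4 was the highest of its group for several genes of the medial margin. Wnt8b was at 1.743 CPM, Wnt3a at 0.2845, Rspo1 at 0.9246, Lmx1a at 0.9602, the Wnt target Sp5 at 0.6046 and Lhx9 at 11.17 CPM. Pcp4 (18.17), Ephb3 (16.68) and the immediate early gene Ier2 (10.14 CPM) were highest there too, and the glutamate transporter Slc1a2 was lowest at 42.78 CPM. In the hippocampus of mouse 4, Reln, the extracellular protein of Cajal-Retzius cells, was lowest at 841.5 CPM.

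The cortical library of mouse 3 was the highest for the transcription factors Zbtb20 (255.8 CPM), Nfix (797.2), Nfia (396.8), Tle4 (196.2) and Zfpm2 (57.29), and for the membrane proteins Mdga1 (132.4), Robo2 (516.9) and Plxna2 (955.3 CPM). It was the lowest for Wls, the carrier of secreted Wnt proteins, at 9.44 CPM. In the hippocampus of mouse 6, Tenm3 reached 180.2 CPM, Nr2f2 84.19, Gad1 115.1, Foxp2 12.33 and Hs3st2 3.023 CPM, each the highest of its group. In mouse 1 Slit2 was the highest of the cortical libraries at 38.16 CPM. In mouse 5 Cx3cr1, the fractalkine receptor of microglia, was highest in hippocampus at 18.64 CPM and so was the neuropeptide Cck at 53.99 CPM.

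For 16 of 19 genes with the largest regional differences at E17.5, that difference was not the same at P7 or P35 by the interaction of region with age, in WT libraries of all 3 ages (edgeR's quasi-likelihood test, Benjamini-Hochberg adjusted p from 9.01e-13 to 0.0886). These genes were chosen for their size at E17.5, which alone favours a smaller difference at another age. The values are changes in the log2 difference of hippocampus over cortex from E17.5. Among genes higher in hippocampus, the change at P7 was -5.41 for Folr1, -5.82 for Clic6, -6.69 for Wnt2b, -2.70 for Otx2, -4.78 for Rspo1, -1.56 for Lmx1a and -4.90 for Sp5. At P35 it was -5.18 for Wnt3a, -2.96 for Clic6, -7.55 for Wnt2b, -7.59 for Rspo1 and -5.32 for Sp5.

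Among genes higher in cortex the difference rose toward 0, and for Mc4r at P35 past it. At P7 the change was 3.60 for 9130024F11Rik, 3.31 for Sla, 3.26 for Mc4r, 2.39 for Pou3f2, 1.86 for Gipr, 3.61 for Hs3st3b1 and 1.78 for Ntsr1. At P35 it was 4.27 for 9130024F11Rik, 3.76 for Sla, 6.64 for Mc4r, 2.81 for Pou3f2, 3.62 for Gipr, 2.81 for Hs3st3b1, 0.93 for Tshz3 and 1.16 for Ntsr1.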

How the results depend on the processing

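Of 204 genes followed, 197 were called, and 156 of these kept their call and direction under all 15 alternatives that tested them, while 41 lost it under at least 1. No called gene reversed. Uncalled genes that changed sign were Gad2 (0.094 without the replicate block, and -0.38 to 0.051 with 1 mouse left out), Pdgfra (-0.13 to 0.20 with 1 mouse left out, -0.19 without mice 2 and 6) and Cul3 (-0.049 to 0.018 with 1 mouse left out), and the cause was not tested. Without the pairing by mouse, 6185 genes were called in place of 7460 (3605 higher, 2580 lower), 1888 at a fold of at least 2, and 168 of the 197. Leaving out 1 mouse gave 6302 to 7050 calls, 3672 to 4037 higher, 2436 to 3013 lower and 1877 to 2007 at a fold of at least 2. Without mice 1 and 4, whose hippocampal libraries are the shallowest, 1866 genes were called lower in place of 3190, with fewer samples in the fit. Without mice 2 and 6, a choice made after seeing the data, 5550 were called. Without the filter on low counts 2670 genes passed a fold of at least 2. The interaction of region with genotype gave 0 calls by the quasi-likelihood test and 3 by the likelihood ratio test. Genes under about 1 CPM rest on few reads.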
